A study of Mus musculus with 6 samples.

Results

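The interferon-inducible GTPases described here are 10 mouse genes of the guanylate-binding protein (GBP) and immunity-related GTPase (IRG) families: Gbp2, Gbp3, Gbp4, Gbp6, Gbp7, Gbp8, Gbp9, Irgm1, Irgm2 and Igtp, the last also known as Irgm3. They were chosen by symbol, and all 10 were found among the 15845 genes of the deposited count table. RNA was sequenced from sorted LSK cells, the lineage-negative, Sca1-positive and c-Kit-positive bone marrow fraction that holds blood stem cells and multipotent progenitors. All mice were C57BL/6 with the genotype Mx1Cre; Jak2VF/VF, so both groups were homozygous for Jak2 V617F, the activating kinase mutation of human myeloproliferative neoplasms. The vehicle group received PBS. The treated group received TP-3654, which the title of the series calls an agent of Pim1 inhibition, and 150 mg/kg/day was given over 6 weeks. Both groups consist of 3 biological replicates, 1 library each. The Cre recombinase is driven by the promoter of Mx1, itself an interferon-induced gene. The labels used here do not say how Cre was induced or how old the mice were, and no arm with unmutated Jak2 was analysed here.

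GBP and IRG proteins are GTP-hydrolysing enzymes of cell-autonomous immunity. Interferon binds its receptor, JAK kinases on the receptor are activated, and transcription factors then act at promoter elements. These elements are the gamma-activated site (GAS) and the interferon-stimulated response element (ISRE), and IRF1 acts at the ISRE. The proteins assemble on the membranes of intracellular pathogens and their vacuoles, where GBPs can break the membrane open and feed caspase-11 inflammasomes. Irgm1, Irgm2 and Igtp belong to the regulatory IRG proteins, which sit on the cell's own membranes and hold effector IRG proteins inactive there. In blood formation Irgm1 is known for keeping stem cells from excessive interferon-driven proliferation, since mice without it have defective stem cells.

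The promoters of the well-detected genes are printed because interferon acts on this family through them. RefSeq promoter sequences of GRCm38.p6 were matched for 6 of the 10 genes. The last 110 bases before the transcript start are given 5′ to 3′ on the gene's own strand. Capitals mark matches to a GAS-type motif, TTCNNNGAA, or an ISRE-type motif, which is GAAA, any 2 bases and GAAA again (on the other strand TTTC, any 2 bases and TTTC), searched on both strands over 250 bases. The lines are Gbp2 (chr3:142620553-142620662, plus strand), Gbp3 (chr3:142559934-142560043, plus strand), Gbp7 (chr3:142530226-142530335, plus strand), Irgm1 (chr11:48871421-48871530, minus strand), Irgm2 (chr11:58214867-58214976, plus strand) and Igtp (chr11:58199446-58199555, plus strand).
Gbp2: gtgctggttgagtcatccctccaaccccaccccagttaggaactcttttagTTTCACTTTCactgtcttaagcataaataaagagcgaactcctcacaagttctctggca
Gbp3: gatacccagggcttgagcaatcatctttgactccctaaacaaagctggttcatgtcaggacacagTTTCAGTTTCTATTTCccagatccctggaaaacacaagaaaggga
Gbp7: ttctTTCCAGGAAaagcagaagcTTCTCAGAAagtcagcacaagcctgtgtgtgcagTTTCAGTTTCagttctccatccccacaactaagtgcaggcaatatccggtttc
Irgm1: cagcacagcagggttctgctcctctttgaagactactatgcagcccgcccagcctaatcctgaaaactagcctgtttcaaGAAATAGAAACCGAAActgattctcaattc
Irgm2: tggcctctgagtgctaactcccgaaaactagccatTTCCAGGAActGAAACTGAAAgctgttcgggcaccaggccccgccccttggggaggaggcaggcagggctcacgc
Igtp: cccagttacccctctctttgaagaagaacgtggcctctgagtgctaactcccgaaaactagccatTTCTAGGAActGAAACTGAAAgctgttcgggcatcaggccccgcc

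An ISRE-type match stood in all 6 of these promoters, whereas 3.46% of 27025 genes with a RefSeq promoter held one within 250 bases. Positions are counted back from the transcript start, with -1 the base just before it. The ISRE-type match began at -59 in Gbp2, at -53 in Gbp7, at -64 in Irgm2 and at -34 in Igtp. Gbp3 (at -45 and -39) and Irgm1 (at -30 and -24) each held an overlapping pair of matches that share 4 letters. A second annotated start of Gbp3 lies further downstream, and its window held no match. GAS-type matches stood in 3 of the 6 promoters, against 8.13% of all genes: Gbp7 had a pair (at -106 and -87), Irgm2 had 1 (at -75) and Igtp had 1 (at -45).

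In Irgm2 and Igtp the GAS-type match was followed 2 bases later by the ISRE-type match. That exact arrangement, whose spacing was noted after the windows had been read, occurred in 5 of 27025 genes (0.0185%). All 5 were GBP or IRG genes on chromosome 11: Irgm2, Igtp, Tgtp1, Tgtp2 and Gm12185. Irgm2 and Igtp are neighbouring paralogs whose printed promoters also share long stretches around the pair. The windows of Tgtp1, Tgtp2 and Gm12185 share long stretches around it with each other as well. The 5 genes are therefore not independent examples. A match is a description of letters and no measurement of binding in these cells.

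**Figure D1:**
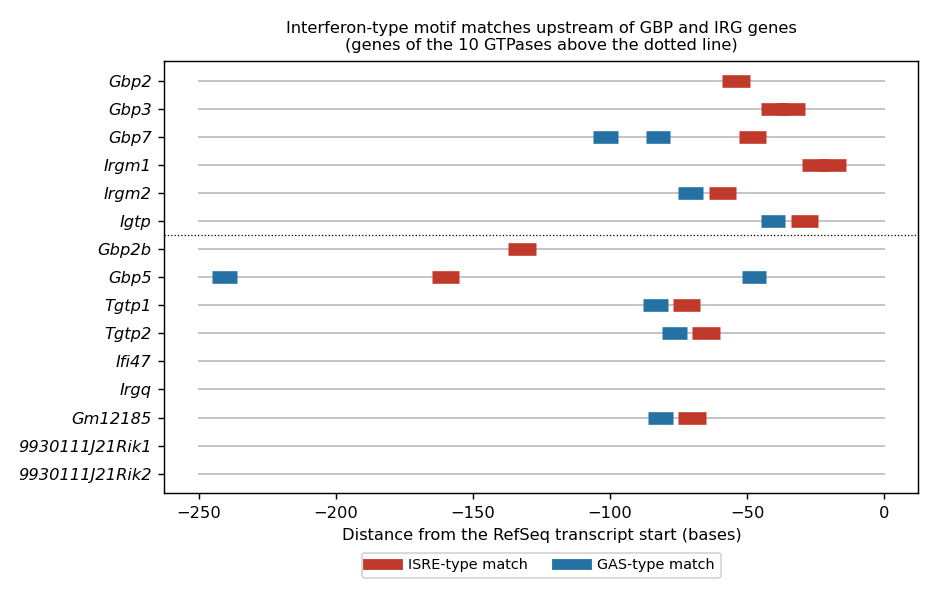
Matches to ISRE-type (red) and GAS-type (blue) motifs in the 250 bases before the RefSeq transcript start (x axis, distance in bases) of 15 GBP and IRG genes, with the 6 matched genes of the 10 GTPases above the dotted line. The ISRE-type matches of those 6 genes begin between -64 and -24, and Irgm2, Igtp, Tgtp1, Tgtp2 and Gm12185 carry the adjoining GAS and ISRE pair.

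The libraries held 20582057 to 25315596 counts. On the CPM scale used below, which is TMM-normalized counts set to a common library size, 3 reads equalled 0.116 to 0.153 CPM. Both sort markers were present: Kit stood at 365 to 377 CPM in vehicle and 436 to 581 CPM in TP-3654 libraries, and Ly6a, the Sca1 gene and itself interferon-responsive, at 40.0 to 69.2 and 60.5 to 68.3 CPM. TP-3654 replicate 3 stood apart: it was the highest or lowest library at 61.2% of the 13149 genes tested, against 17.2% to 43.4% for each of the others. Among the 10 GTPase genes it was the highest library for 2 and the lowest for none. Summed T and NK cell markers ran from 238 to 287 CPM in vehicle and from 159 to 241 CPM in TP-3654 libraries. Nkg7 made up 83.8% to 93.8% of that sum (224 to 263 and 134 to 216 CPM), while Lck (11.1 to 19.2 and 19.4 to 22.1 CPM) and Klrb1c (2.12 to 2.29 and 2.45 to 3.58 CPM) were higher in all treated libraries. Of 11 such genes in the table, Cd3e, Cd3g, Cd8a and Gzma never exceeded 3 counts, nor did the B cell marker Ms4a1 or the stromal marker Lepr. Summed neutrophil and monocyte markers ran from 7427 to 10260 CPM in vehicle and from 1647 to 5461 CPM in TP-3654 libraries. Mpo, a gene of granulocyte precursors, made up 79.8% to 89.2% of that sum (6623 to 8195 and 1403 to 4629 CPM). The genes of more mature neutrophils overlapped between groups, such as S100a8 (0.450 to 39.0 and 0.463 to 9.21 CPM) and Ltf (0.045 to 8.55 and 0.185 to 1.94 CPM). Of 10 tested neutrophil and monocyte markers, 9 had a log2 fold change (TP-3654 minus vehicle) below 0, with a median of -1.56. By edgeR 4 were lower and 0 higher at an unadjusted p under 0.05, against 6.84% and 10.2% of all tested genes. DESeq2 called 2 as lower, against 4.9% of all genes called. The authors' deposited table calls Mpo (-1.31, deposited adjusted p = 0.0232), Csf1r (-0.96, deposited adjusted p = 0.00515) and Ly6c2 (-2.11, deposited adjusted p = 0.0104) as lower. The sums of macrophage and dendritic cell markers (64.2 to 141 and 71.5 to 89.2 CPM), B cell markers (28.5 to 44.5 and 28.6 to 31.4 CPM), erythroid markers (259 to 550 and 281 to 800 CPM) and endothelial and stromal markers (156 to 173 and 136 to 169 CPM) overlapped between groups. Cd79b made up 94.3% to 99.2% of the B cell sum, and Pecam1 88.0% to 95.2% of the endothelial and stromal sum. Single genes could differ under such sums. DESeq2 called 1 lower and 0 higher of 9 tested macrophage and dendritic cell markers, and 1 lower and 0 higher of 6 tested endothelial and stromal markers. The part of these differences in the values below was not tested. In bulk RNA, fewer cells of a type and less RNA per cell cannot be told apart.

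Of the 10 genes 6 were well detected and 4 were counted at a low level, in both groups alike. To set genes side by side, levels were divided by the annotated exon length and are given as CPM per kb over all 6 libraries. Igtp led with 42.1 ± 6.55 CPM per kb (SD, n = 6), followed by Gbp3 with 34.6 ± 10.3, Gbp2 with 19.2 ± 1.60, Irgm1 with 18.9 ± 1.53, Irgm2 with 15.8 ± 1.28 and Gbp7 with 11.8 ± 2.66 CPM per kb. Neighbours in this order had overlapping ranges over the libraries. After a gap came Gbp8 with 0.248 ± 0.0934, Gbp6 with 0.224 ± 0.0325, Gbp4 with 0.181 ± 0.0839 and Gbp9 with 0.165 ± 0.0949 CPM per kb, which overlapped among themselves. The lowest library of Gbp7, at 7.79 CPM per kb, lay above the highest library of Gbp8, at 0.417 CPM per kb.

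Gbp7, Gbp3 and Gbp2 span 142530336 to 142638008 (GRCm38) in the Gbp cluster of chromosome 3. The cluster also holds Gbp2b, between Gbp3 and Gbp2, and Gbp5, which lies outside that span (142496934 to 142522344). Gbp8, Gbp9, Gbp4 and Gbp6 span 105012513 to 105295871 in the Gbp cluster of chromosome 5. Of the 10 genes these were the 4 at low level, but low levels were not limited to chromosome 5, since Gbp2b on chromosome 3 stood at 0.458 to 0.972 CPM. Irgm1 (48865245 to 48871420), Igtp (58199556 to 58207592) and Irgm2 (58214977 to 58222783) lie on chromosome 11. The 3 chromosome 3 genes together gave 216, 265 and 238 CPM in vehicle replicates 1 to 3 and 180, 188 and 278 CPM in TP-3654 replicates 1 to 3. The 3 chromosome 11 genes gave 245, 266 and 267 CPM in vehicle and 279, 222 and 239 CPM in TP-3654 libraries. The 4 chromosome 5 genes together gave 4.18, 4.14 and 3.30 CPM in vehicle and 7.22, 3.37 and 4.19 CPM in TP-3654 libraries, which was 0.649% to 1.55% of the total over the 10 genes. All of these sums overlapped between the groups.

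**Figure D2:**
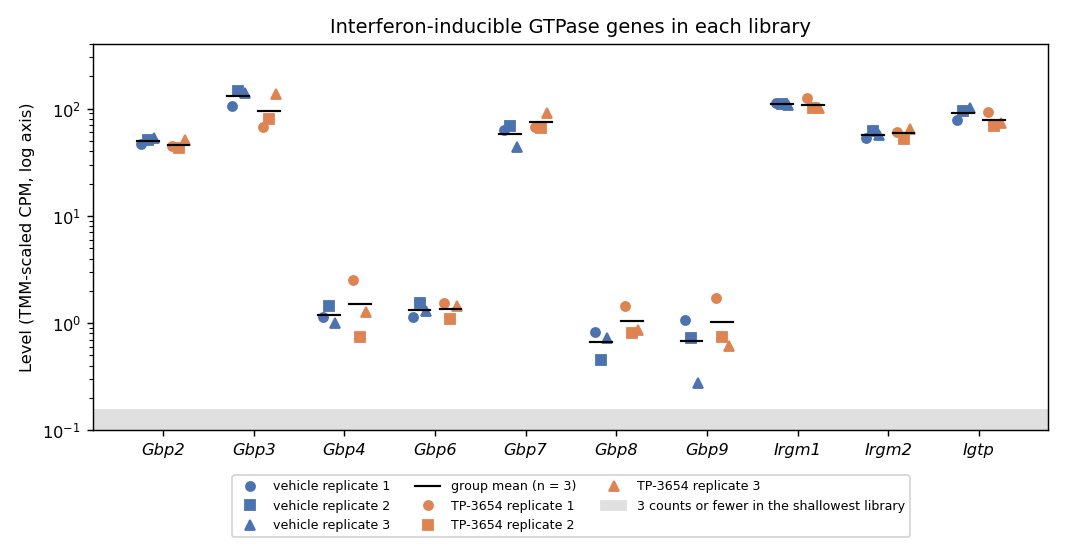
Level of each of the 10 GTPase genes in every library, as TMM-scaled CPM on a log axis, with vehicle in blue, TP-3654 in orange, marker shapes for replicates 1 to 3, black bars for group means (n = 3) and grey shading for levels at or under 3 counts. Gbp2, Gbp3, Gbp7, Irgm1, Irgm2 and Igtp stand between 42.8 and 146 CPM, while Gbp4, Gbp6, Gbp8 and Gbp9 stand between 0.275 and 2.54 CPM.

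TP-3654 against vehicle asks how Pim inhibition acts on the interferon-inducible GTPases of Jak2-mutant stem and progenitor cells, and with all 6 libraries none of the 10 was called. Gbp3 alone of the 10 passed elsewhere, as lower, in DESeq2 without TP-3654 replicate 3 and in the authors' deposited table, both given below. In edgeR's quasi-likelihood test with Benjamini-Hochberg adjustment over all 13149 tested genes, 0 of the 10 were called at an adjusted p under 0.05, where 0 of all genes (0%) were called, so this count does not set the 10 apart. None of the 10 had an unadjusted p under 0.05, against 2244 of all tested genes (17.1%). None had groups that did not overlap, against 3411 of all genes (25.9%). DESeq2 on the same counts called 0 of the 10 and 644 of 13132 genes (4.9%), and limma-voom, with or without sample weights, called 0 of the 10. The smallest unadjusted p among them was 0.0997 for Gbp7, and the smallest adjusted p over all genes tested was 0.0701. The median log2 fold change, TP-3654 minus vehicle, was 0.04 over the 10 genes and 0.01 over all tested genes. Of the fold changes 6 were above 0 and 4 below. The sign of Gbp4, Gbp6, Gbp9, Irgm1 and Irgm2 depended on which library or test was used.

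Among the regulatory IRG genes, Irgm1 stood at 113, 110 and 109 CPM in vehicle replicates 1 to 3 and at 125, 100 and 101 CPM in TP-3654 replicates 1 to 3. The vehicle values lay inside the range of the TP-3654 values. For Irgm1 edgeR gave -0.02 as the log2 fold change (SE 0.12, adjusted p = 0.930), and its 95% interval ran from -0.28 to 0.24.

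Irgm2, which shares 9.16% of its 31-base sequence words with Igtp, stood at 53.7, 61.2 and 56.2 CPM in vehicle and 60.8, 52.4 and 64.5 CPM in TP-3654 libraries. The highest and the lowest of the 6 libraries were both TP-3654 libraries, and the log2 fold change was 0.05 (SE 0.12, adjusted p = 0.832 by edgeR; 95% interval -0.22 to 0.33). Igtp stood at 78.3, 94.8 and 102 CPM in vehicle and 93.2, 69.3 and 73.1 CPM in TP-3654 libraries. Its lowest libraries were TP-3654 replicates 2 and 3, while TP-3654 replicate 1 lay among the vehicle values. Its log2 fold change was -0.22 (SE 0.15, adjusted p = 0.451 by edgeR; 95% interval -0.56 to 0.11). All 3 intervals of the regulatory IRG genes include 0.

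Of the chromosome 3 GBPs, Gbp2 is a prenylated protein, anchored in membranes by a lipid tail, and is recruited to bacterial and parasite vacuoles. It stood at 46.5, 50.8 and 53.5 CPM in vehicle and 45.2, 42.8 and 50.5 CPM in TP-3654 libraries. The groups overlapped, with TP-3654 replicate 3 among the vehicle values. For Gbp2 the log2 fold change came to -0.12 (SE 0.12, adjusted p = 0.601 by edgeR; 95% interval -0.39 to 0.15).

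Gbp7 had the smallest p of the 10. It stood at 62.5, 68.2 and 43.7 CPM in vehicle and 67.0, 65.3 and 90.5 CPM in TP-3654 libraries. Vehicle replicate 3 was the lowest and TP-3654 replicate 3 the highest library, and the other 4 lay within 62.5 to 68.2 CPM. The log2 fold change was 0.35 (SE 0.19, adjusted p = 0.370 by edgeR; 95% interval -0.08 to 0.79), and it was 0.18 when TP-3654 replicate 3 was left out.

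Gbp3 showed the widest disagreement between treated libraries among the well-detected genes. It stood at 107, 146 and 141 CPM in vehicle and at 67.5, 80.2 and 137 CPM in TP-3654 libraries. TP-3654 replicates 1 and 2 lay below all vehicle libraries and TP-3654 replicate 3 among them. The coefficient of variation was 16.4% in vehicle and 38.9% in TP-3654 libraries. Over all 6 libraries the log2 fold change was -0.47 (SE 0.28, adjusted p = 0.416 by edgeR; 95% interval -1.12 to 0.18). Without TP-3654 replicate 3 it was -0.84, which missed the threshold in edgeR (adjusted p = 0.0654) and passed it in DESeq2 (adjusted p = 0.000193), an analysis that was added once the values had been seen. That analysis called 428 of 12865 genes (3.33%), and Gbp3 was the 1 of the 10 GTPase genes among them.

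**Figure D3:**
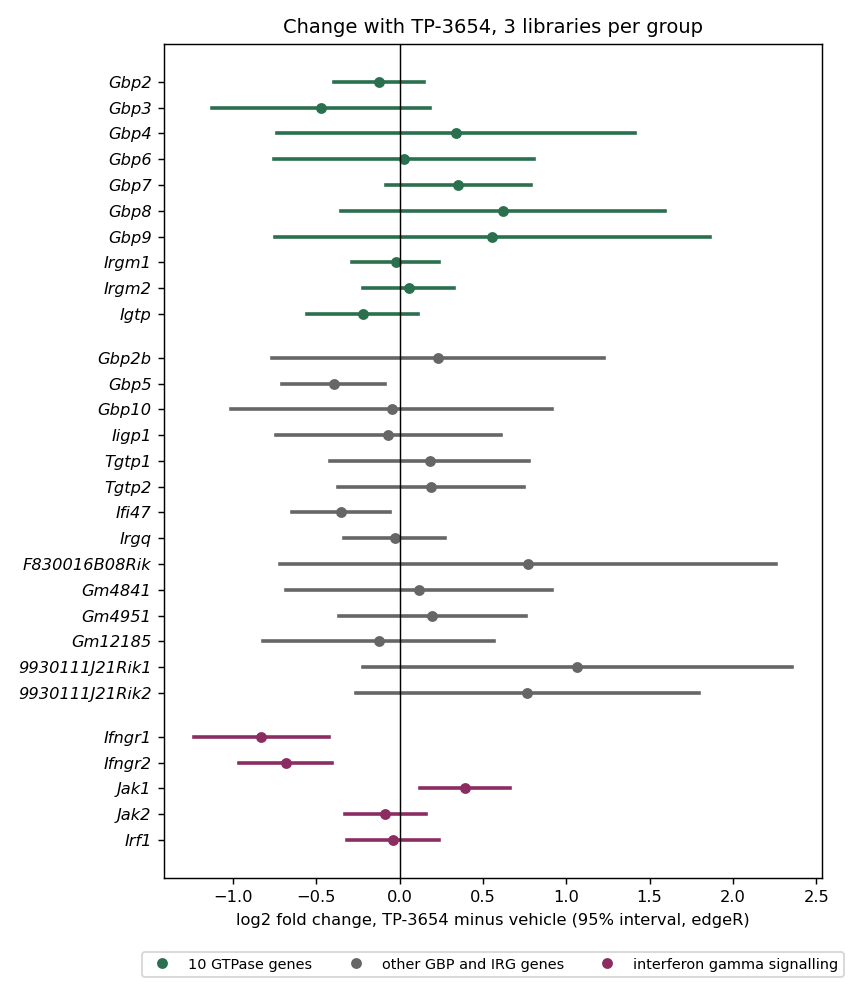
Log2 fold change, TP-3654 minus vehicle (x axis, point), with its 95% interval from edgeR (line), for the 10 GTPase genes (green), the 14 tested other GBP and IRG genes (grey) and 5 interferon gamma signalling genes (purple), 3 libraries per group. All 10 green intervals include 0, while those of Gbp5, Ifi47, Ifngr1, Ifngr2 and Jak1 do not.

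The 4 chromosome 5 GBPs were counted by only 6 to 55 reads per library, which left wide intervals. Gbp4 stood at 1.14, 1.44 and 1.01 CPM in vehicle and 2.54, 0.735 and 1.28 CPM in TP-3654 libraries, so its highest and lowest libraries were both treated ones (log2 fold change 0.34, SE 0.48). Gbp6 stood at 1.14, 1.53 and 1.28 CPM in vehicle and 1.53, 1.08 and 1.43 CPM in TP-3654 libraries (log2 fold change 0.03, SE 0.35). Gbp8 stood at 0.828, 0.450 and 0.733 CPM in vehicle and 1.43, 0.813 and 0.869 CPM in TP-3654 libraries (log2 fold change 0.62, SE 0.43). Gbp9 stood at 1.06, 0.721 and 0.275 CPM in vehicle and 1.71, 0.735 and 0.613 CPM in TP-3654 libraries (log2 fold change 0.56, SE 0.58). TP-3654 replicate 1 was the highest library for Gbp4, Gbp8 and Gbp9. The 95% intervals reached from -0.75 (Gbp6 and Gbp9) to 1.86 (Gbp9), and those of Gbp4, Gbp8 and Gbp9 include a 2-fold higher level with TP-3654. Sequence sharing adds to the uncertainty: 74.3% of the 31-base words of Gbp6 also occur in other annotated genes, mainly Gm43302 and Gbp10, and 31.1% of those of Gbp8. For the 6 well-detected genes the share was 2.88% (Irgm1) to 15.9% (Igtp).

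Treated libraries stood at both ends of the range. TP-3654 replicate 2 was the lowest library for 6 of the 10 genes, against 7.07% of all tested genes. TP-3654 replicate 1 was the highest for 4 of the 10, against 11.2% of all tested genes. On the centred log2 CPM scale, the mean of the 10 genes stood at -0.01, 0.04 and -0.15 in vehicle and at 0.27, -0.21 and 0.07 in TP-3654 libraries. The high value of TP-3654 replicate 1 came from the 4 genes at low level, whose mean there was 0.75, while that of the 6 well-detected genes was -0.05. In TP-3654 replicate 3 the order was the other way round (-0.01 and 0.12). The genes with the profile most like that mean, by the root mean square difference over the 6 libraries, were Cmc4 (0.0335), Msantd2 (0.0552), Cdc7 (0.0622), Prickle1 (0.0657), Gm9833 (0.0667) and Osbpl3 (0.0686). The median difference over 11493 genes was 0.253.

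**Figure D4:**
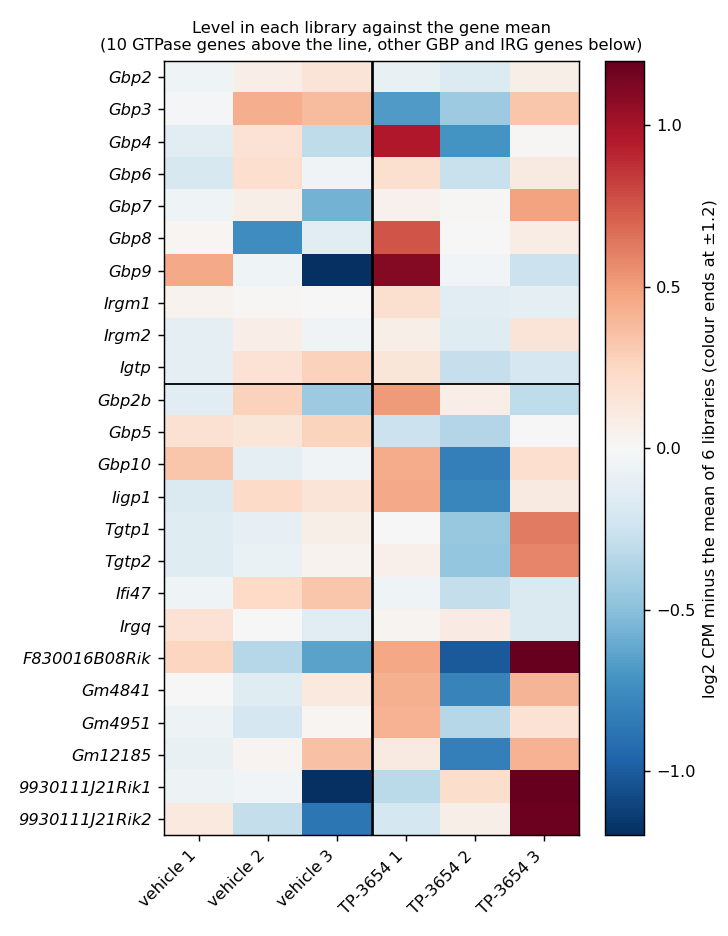
Log2 CPM of each gene in each library minus the gene's mean over 6 libraries (colour, ending at ±1.2), for the 10 GTPase genes above the horizontal line and 14 other tested GBP and IRG genes below it, with vehicle left and TP-3654 right of the vertical line. None of the 10 genes has groups that do not overlap, and TP-3654 replicate 2 is the lowest library for 6 of them (7.07% of all tested genes). Gbp3 stands at -0.68, -0.43 and 0.33 in TP-3654 replicates 1 to 3.

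The other GBP and IRG genes were mostly at overlapping levels too. Of 15 such genes 14 passed the low-count filter, and edgeR and DESeq2 each called 0. At an unadjusted p under 0.05 there were 2 lower and 0 higher genes, where 6.84% of all tested genes were lower and 10.2% higher. Both also had all treated libraries below all vehicle libraries, as did 11.6% of all genes. The median log2 fold change was 0.15 over the 14.

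Gbp5, the neighbour of Gbp7 and like Gbp2 a prenylated GBP, known for its part in inflammasome activation, stood at 37.5, 36.7 and 40.0 CPM in vehicle and 27.7, 26.0 and 33.2 CPM in TP-3654 libraries. This corresponds to a log2 fold change of -0.40 (SE 0.14, unadjusted p = 0.0169, adjusted p = 0.204 by edgeR). Its promoter held GAS-type matches at -245 and -52 and an ISRE-type match at -165. In DESeq2 without TP-3654 replicate 3 it passed, with a log2 fold change of -0.52 (adjusted p = 0.0130).

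Ifi47, an effector IRG gene also called Irgd, stood at 206, 253 and 269 CPM in vehicle and 206, 175 and 190 CPM in TP-3654 libraries. The log2 fold change was -0.35 (SE 0.13, unadjusted p = 0.0235, adjusted p = 0.229 by edgeR), and the highest TP-3654 library lay just under the lowest vehicle library. Its promoter window held no match to either motif.

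The effector IRG genes Tgtp1 and Tgtp2 share 84.4% and 90.5% of their 31-base words with other genes, mainly each other, and are uncertain as single genes. Tgtp1 stood at 129, 133 and 150 CPM in vehicle and 143, 104 and 220 CPM in TP-3654 libraries (log2 fold change 0.18, SE 0.25). Tgtp2 had a log2 fold change of 0.19 (SE 0.24) with the same order of treated libraries. Iigp1, another effector, stood at 21.5, 28.5 and 26.8 CPM in vehicle and 33.2, 14.1 and 26.1 CPM in TP-3654 libraries (log2 fold change -0.07, SE 0.29). For these effectors the highest and lowest libraries were again treated ones. Fold changes of the rest ran from -0.13 in Gm12185 to 1.06 in 9930111J21Rik1, a gene at 12.4 CPM in TP-3654 replicate 3 and at 1.65 to 4.91 CPM elsewhere. Between these lay Gbp10 (-0.05), Irgq (-0.03), Gm4841 (0.12), Gm4951 (0.20), Gbp2b (0.23), 9930111J21Rik2 (0.77, SE 0.43) and F830016B08Rik (0.77, SE 0.66), and Gbp11 was too low to be tested. The 3 highest of these values rest on TP-3654 replicate 3: without it they were 0.33 for 9930111J21Rik1, 0.22 for 9930111J21Rik2 and 0.07 for F830016B08Rik. The median over the 14 genes was then -0.10, and it was -0.15 in the authors' deposited table. The sign of the fold change depended on which library or test was used for Gbp2b, Gbp10, Iigp1, Tgtp1, Tgtp2, Irgq, Gm4841 and Gm12185. Sequence sharing was also high for 9930111J21Rik1 (88.85% of its 31-base words), 9930111J21Rik2 (70.57%) and Gbp10 (89.82%). The former pair share mainly with each other and Gbp10 mainly with Gbp6, so they too are uncertain as single genes.

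Among 6 other interferon-inducible large GTPases in the table, edgeR and DESeq2 called 0 and none had an unadjusted p under 0.05. Mx2, a gene of the dynamin-like antiviral GTPases that RefSeq annotates as a transcribed pseudogene, had a log2 fold change of 0.27 (SE 0.46). Of the very large inducible GTPase family, Gm4070, Gm8979 and Gm8989 stood at 736, 101 and 75.6 CPM in TP-3654 replicate 3. Over the other 5 libraries they stood at 181 to 273, 15.1 to 25.8 and 11.6 to 17.4 CPM. RefSeq annotates Gm8979 and Gm8989 as transcribed pseudogenes too. Of the 31-base words of Gm4070 and Gm8979, 98.6% and 91.7% occur in other genes, so single genes of this group are uncertain.

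Upstream of the GTPases, the 2 chains of the interferon gamma receptor had all treated libraries below all vehicle libraries, without passing in edgeR over all 6 libraries. Ifngr1, the ligand-binding chain, stood at 219, 200 and 200 CPM in vehicle and 111, 150 and 88.0 CPM in TP-3654 libraries. Its log2 fold change was -0.83 (SE 0.18, adjusted p = 0.0875 by edgeR; 95% interval -1.23 to -0.43). DESeq2 called it (adjusted p = 0.000967), limma-voom with sample weights called it (adjusted p = 0.0441), and edgeR called it without TP-3654 replicate 2 (-1.06, adjusted p = 0.0464).

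Ifngr2, the signalling chain, stood at 54.0, 57.2 and 51.0 CPM in vehicle and 33.8, 36.9 and 30.2 CPM in TP-3654 libraries, and the groups did not overlap. The log2 fold change was -0.68 (SE 0.12, adjusted p = 0.0792 by edgeR; 95% interval -0.97 to -0.40), and DESeq2 called it (adjusted p = 0.000233). The neutrophil and monocyte marker sum given above, which is mostly Mpo, was likewise lower in each TP-3654 library, and its part in the receptor values was not tested.

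Downstream of the receptor, Jak1 stood at 266, 254 and 229 CPM in vehicle and 296, 322 and 362 CPM in TP-3654 libraries (log2 fold change 0.39, SE 0.12, adjusted p = 0.174 by edgeR). All treated libraries lay above all vehicle libraries, and the authors' deposited table calls Jak1 as higher (0.32, deposited adjusted p = 0.00219). Jak2 (-0.09, SE 0.11) and Irf1 (-0.04, SE 0.12) had log2 fold changes near 0 and groups that overlapped. Irf8, an interferon-induced transcription factor of myeloid development, stood at 285, 172 and 182 CPM in vehicle and 131, 142 and 137 CPM in TP-3654 libraries (-0.64, SE 0.19, adjusted p = 0.159 by edgeR), and DESeq2 called it (adjusted p = 0.0260). In edgeR 0 of the 13 receptor and signalling genes were called, with 1 higher and 3 lower at an unadjusted p under 0.05. By DESeq2 3 of them were lower. The median log2 fold change of the 13 was -0.09. For this list and those below, 10.2% of all tested genes were higher and 6.84% lower at an unadjusted p under 0.05 by edgeR. DESeq2 called 4.9% of all genes in either direction, and 11.6% had all treated libraries below all vehicle libraries. The interferon ligand genes looked up, Ifng among them, were not found among the 15845 genes of the deposited count table, so they were not tested.

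Of 7 genes of the type I interferon receptor and its signalling, edgeR and DESeq2 called 0 and none had an unadjusted p under 0.05, while for Ifnar2 and Tyk2 the treated libraries all lay below the vehicle libraries. Ifnar1 (log2 fold change -0.08, SE 0.10), Ifnar2 (-0.12, SE 0.10), the kinase gene Tyk2 (-0.22, SE 0.11) and Usp18, which feeds back on the receptor (0.41, SE 0.27), stood on both sides of 0.

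Other interferon response genes were measured for comparison. Of 26 tested interferon gamma response genes outside the GTPases, 2 were higher and 3 lower at an unadjusted p under 0.05, edgeR called 0 and DESeq2 called 2, and the median log2 fold change was 0.0023. Cd274, which encodes the checkpoint ligand PD-L1, had a log2 fold change of 0.60 (SE 0.16, DESeq2 adjusted p = 0.0366) and Cd69, an early activation antigen, one of -0.54 (SE 0.13, DESeq2 adjusted p = 0.0150). DESeq2 without TP-3654 replicate 3 called Cd69 (adjusted p = 0.0362) and not Cd274 (adjusted p = 0.121). The authors' deposited table likewise calls Cd69 (deposited adjusted p = 0.00378) and not Cd274 (deposited adjusted p = 0.175). Tapbp, the peptide-loading chaperone tapasin, had one of -0.37 (SE 0.15) and Stat3 one of 0.33 (SE 0.14).

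Of 35 type I interferon response genes, 2 were higher and 0 lower at an unadjusted p under 0.05, edgeR called 0 and DESeq2 called 1. Fold changes of 28 lay above 0, as did those of 6852 of all 13149 genes, and the median was 0.21. Without TP-3654 replicate 3 there were 23 above 0 with a median of 0.11, and 14 of the 35 lie above 0 in the authors' deposited table, with a median of -0.05. Ddx58, the RNA sensor RIG-I, stood at 46.9, 35.1 and 41.6 CPM in vehicle and 56.3, 59.4 and 70.9 CPM in TP-3654 libraries (log2 fold change 0.59, SE 0.15, DESeq2 adjusted p = 0.0215). It missed the threshold in DESeq2 without TP-3654 replicate 3 (adjusted p = 0.0749) and in the authors' deposited table (deposited adjusted p = 0.0535). Eif2ak2, the RNA-activated kinase PKR, had a log2 fold change of 0.41 (SE 0.14), Ifi203 one of 0.38 (SE 0.19) and Cmpk2 one of -0.37 (SE 0.18).

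The last 3 lists hold genes whose products act on or with the GTPase proteins. Of 15 genes of the ubiquitin-like conjugation machinery that places GBP and IRG proteins on vacuoles, 1 was higher and 2 were lower at an unadjusted p under 0.05, edgeR called 0 and DESeq2 called 1. The last was Gabarap (log2 fold change -0.39, SE 0.12, DESeq2 adjusted p = 0.0487), a member of the ATG8 family that helps direct GBP and IRG proteins to vacuoles. The ligase gene Rnf213 (0.46, SE 0.18), the conjugation factor gene Atg12 (-0.42, SE 0.15) and Trim21 (0.23, SE 0.13) had the next smallest p. None of the 5 prenylation genes had an unadjusted p under 0.05, and Fnta, Rce1, Pggt1b and Fntb (log2 fold changes -0.17, -0.16, -0.14 and -0.04) had the smallest p among them. Of 11 inflammasome partners 1 was higher and 1 lower at that level and edgeR called 0. Il18, the inflammasome cytokine, stood at 4.33, 1.94 and 3.21 CPM in vehicle and 7.17, 7.31 and 6.95 CPM in TP-3654 libraries (log2 fold change 1.17, SE 0.31, DESeq2 adjusted p = 0.0180). Naip2 (-0.47, SE 0.19), Pycard (-0.24, SE 0.11) and Nlrc4 (-0.35, SE 0.27) followed.

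The fold changes in the authors' deposited table differ from those recomputed here, and among the 10 GTPase genes the call differs for Gbp3 alone. Directions differ too. The authors' values lie above 0 for 4 of the 10 genes and below 0 for 6, with a median of -0.11. Recomputed by edgeR, 6 were above 0 with all 6 libraries (median 0.04) and 5 without TP-3654 replicate 3 (median -0.0021). Gbp6 (-0.26) and Irgm2 (-0.13) are below 0 in the authors' values, against 0.03 and 0.05 recomputed with all 6 libraries. The authors' deposited table gives Gbp3 a log2 fold change of -0.84 (deposited adjusted p = 4.93e-05), the only 1 of the 10 called there, where 699 of 13130 genes (5.32%) are. The recomputed values were -0.47 with all 6 libraries and -0.84 without TP-3654 replicate 3. The authors' deposited table also calls Gbp5 (-0.58, deposited adjusted p = 0.0101) and does not call Ifi47 (-0.32, deposited adjusted p = 0.0904). Ifngr1 (-0.74, deposited adjusted p = 9.31e-06), Ifngr2 (-0.69, deposited adjusted p = 0.00093) and Irf8 (-0.73, deposited adjusted p = 0.0136) are called as lower in the authors' deposited table. Over 12808 genes the median absolute difference between the authors' deposited fold changes and the recomputed ones was 0.0762 with all 6 libraries and 0.0424 without TP-3654 replicate 3. Leaving out any other library gave 0.0959 to 0.123. The labels used here do not state which libraries entered the authors' deposited table.

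**Figure D5:**
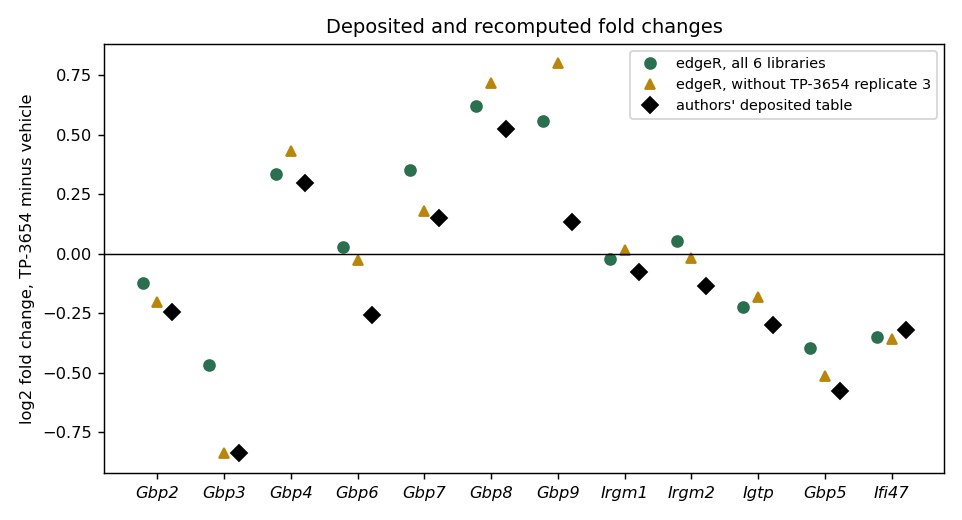
Log2 fold change, TP-3654 minus vehicle (y axis), for the 10 GTPase genes, Gbp5 and Ifi47, from edgeR with all 6 libraries (green circles), from edgeR without TP-3654 replicate 3 (ochre triangles) and from the authors' deposited table (black diamonds). For Gbp3 the 3 values are -0.47, -0.84 and -0.84.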

How the data were processed

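The series holds RNA-seq of 6 LSK libraries, 3 per group. The authors deposited whole-number read counts per Entrez gene, 1 column per library and not normalized. Their second deposited table holds, per the file headers, a signal (the authors' mean of normalized counts), a deposited log2 fold change with its standard error, a deposited score (the Wald statistic) and deposited raw and adjusted p-values. HISAT2 2.1.0, SAMtools 1.9.0, DESeq2 and the builds mm10 and GRCm38 come from the submitters' processing notes. No source used here names the read counter, annotation or strand setting, so overlapping, antisense and near-identical genes are uncertain. LSK cells were sorted after magnetic lineage depletion, and poly(A) RNA was made into NEBNext Ultra II libraries, per the labels' protocols.

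Symbols came from the authors' table (12995 genes) and RefSeq (2844), and 6 genes had none. Counts were tested in edgeR 4.0.16 (R 4.3.3) with TMM factors, filterByExpr (13149 genes kept, 2696 removed), a robust quasi-likelihood fit and Benjamini-Hochberg adjustment over all genes tested, called under 0.05. The standard error is the size of the log2 fold change divided by the root of the F statistic, and the 95% interval uses the fit's total degrees of freedom. Alternatives were DESeq2 1.42.0, limma-voom 3.58.1 with and without sample weights, other scalings, filters and a non-robust fit, a block for the replicate number, and each library left out. P-values measure the spread between 3 libraries per group. On simulated counts for this comparison (13149 genes), 64 of 100 genes changed 2-fold and 94 of 100 changed 4-fold were recovered, and 13 of 12839 unchanged genes were called. The changed genes were drawn from those with a mean above 1 CPM, a level that Gbp8 and Gbp9 did not reach. No simulated library was made to stand apart as TP-3654 replicate 3 does, so recovery under those conditions was not tested.

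The genes and lists were chosen with earlier results of these data known. Named are the 10 genes, all detected GBP and IRG genes, up to 4 genes with the smallest p per further list, a fixed set of interferon gamma signalling and sort genes, and the 6 genes most like the mean profile with a mean log2 CPM of at least 1. A gene that the rule names is not reported here. Shared 31-base words were counted against all other GENCODE genes of GRCm38, and exon lengths come from the same annotation. Gene coordinates come from RefSeq.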

Additional observations from a re-analysis of the deposited data

How the results depend on the processing

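Gbp4, Gbp6, Gbp8 and Gbp9 rest on 6 to 55 reads per library. Calls over all genes numbered 0 in edgeR, 644 with DESeq2, 290 with limma-voom and sample weights, 5 with no low-count filter, 0 to 31 with 1 library left out (31 without TP-3654 replicate 3), and 428 with DESeq2 without TP-3654 replicate 3, a fit chosen after seeing the data. Of the 10 GTPase genes 0 were called under every other alternative, and 1 (Gbp3, lower, -0.84) in the added fit. With a filter of 1 CPM in 3 libraries, Gbp8 and Gbp9 were not tested. Of the 176 tested genes of the lists around them, 0 were called in edgeR, 15 with DESeq2, 6 with sample weights, 0 to 2 with 1 library left out (2 without TP-3654 replicate 2) and 11 in the added fit. The cause of these differences was not tested. Same-numbered libraries did not deviate together (correlations -0.0117, -0.015 and 0.031), so the numbers were not taken as pairs. With a replicate block 3 genes were called and 0 of the 10.

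Over the 10 genes and their alternatives, 153 values kept their sign and their side of the threshold, 14 changed sign and 1 passed. With sample weights the changed signs were Gbp6 -0.043, Irgm1 0.013, Irgm2 -0.00939, Tgtp1 -0.069, Tgtp2 -0.041, Irgq 0.017, Fntb 0.049 and Gm4841 -0.11 (-0.021 without weights). In DESeq2 without TP-3654 replicate 3 they were Gbp6 -0.029, Irgm1 0.013, Irgm2 -0.022, Tgtp1 -0.17, Tgtp2 -0.12, Irgq 0.034, Fntb 0.059 and Gm4841 -0.077. With 1 library left out, log2 fold changes ran from -0.26 to 0.67 in Gbp4, -0.072 to 0.17 in Gbp6, -0.030 to 1.02 in Gbp9, -0.13 to 0.031 in Irgm1 and -0.020 to 0.13 in Irgm2. They ran from -0.33 to 0.27 in Gbp10, -0.029 to 0.45 in Gbp2b, -0.41 to 0.16 in Gm12185, -0.075 to 0.43 in Gm4841, -0.35 to 0.21 in Iigp1, -0.10 to 0.055 in Irgq, -0.16 to 0.40 in Tgtp1 and -0.12 to 0.41 in Tgtp2. For Fntb, Irf1 and Mx2 they ran from -0.20 to 0.061, -0.11 to 0.067 and -0.12 to 0.66.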
